A study of Rattus norvegicus with 6 samples.

Results

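The genes described here encode 6 lipid-sensing nuclear receptors, Ppara, Ppard, Pparg, Nr1h3, Nr1h4 and Rxra, and they were followed in rat liver by 8 probe sets of 1 microarray design. The probe sets were all those annotated with 1 of these symbols and no other, which gave 3 for Ppard and 1 for each of the other genes, out of 8740 probe sets and 4736 distinct symbols in all. The study hybridized liver RNA from male Sprague Dawley rats to Affymetrix RG_U34A arrays, each sample on its own array. The 3 NASH samples, named for nonalcoholic steatohepatitis, came from rats given a liquid diet with 70% corn oil at a daily 220 kcal per kg of metabolic body mass, and the 3 Control samples from rats given 5% corn oil at 187 kcal. Both groups were fed for 3 weeks by total enteral nutrition, which delivers the diet by tube, and neither carried any other stated treatment. Fat content and energy supply differed together, so that the comparison is between whole diets. Nothing states that the samples were separate animals, and p-values here capture the spread among the 6 samples alone, which may be technical.

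Nuclear receptors are transcription factors whose activity is set by small lipophilic ligands. The PPAR receptors bind fatty acids and their derivatives, the receptor LXR alpha (Nr1h3) binds oxidized cholesterol, and the receptor FXR (Nr1h4) binds bile acids. Each of them sits on DNA as a pair with a retinoid X receptor such as Rxra. In liver, PPAR alpha drives fatty acid oxidation, LXR alpha drives sterol export and fat synthesis, and FXR restrains bile acid synthesis. Ligands act on receptor protein already present, so that a transcript level does not measure receptor activity.

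Hepatocyte markers were bright in every sample, with all 10 measured genes above the intensity filter and summed normalized signals of 33800 to 34760 in NASH and 34900 to 36280 in Control. NASH 2 stood apart from the other arrays. In deposited signals it had 1044 for the fat cell protein Fabp4, 1100 for the brown fat protein Ucp1, 1322 for the muscle actin Acta1 and 447 for the muscle creatine kinase Ckm. The highest of the other 5 arrays had 4.47, 15.97, 18.9 and 50.6 for these genes. Among 7 measured skeletal muscle markers, Myh4 went the other way, with 8.53 in NASH 2 and 10.27 to 27.62 in the other arrays. The summed normalized signal of 6 measured fat cell markers was 2338 in NASH 2, 451 in NASH 1, 539 in NASH 3 and 435 to 443 in Control. The scan record of NASH 2 listed 1 scan, against 2 for each other array. In a bulk sample, fewer cells of a type and less RNA per cell cannot be told apart.

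None of the receptor transcripts passed the test between the diets. Signals were quantile normalized, an offset of 2.21 was added and log2 was taken, and all differences below are NASH minus Control on that scale, which understates the change of dim probe sets. Of the 8 probe sets, 6 lay above the intensity filter and were tested with limma together with all 5244 probe sets that passed it. The count of receptor probe sets called at a Benjamini-Hochberg adjusted p under 0.05 was 0 of 6, where 0.133% of all tested probe sets were called. At an unadjusted p under 0.05 there was 1 of 6 (Rxra, higher in NASH), against 7.86% of all tested, 3.81% higher and 4.04% lower. The 2 others, U40064_g_at of Ppard and AB011365_s_at of Pparg, were dim and have no limma test. The groups overlapped for all 8 probe sets, while 14.3% of all tested probe sets showed no overlap, 6.54% lying higher and 7.76% lower in NASH.

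**Figure D1:**
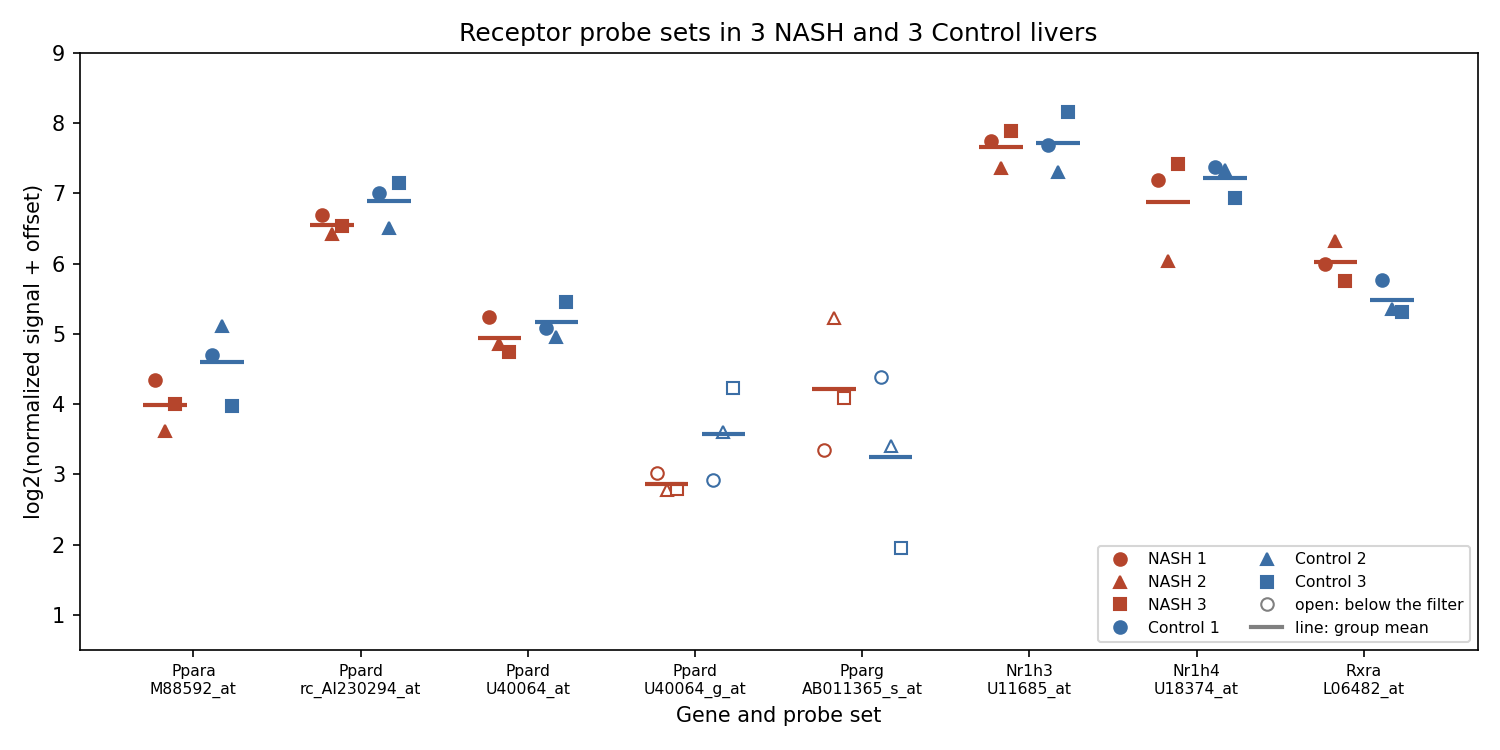
Normalized signals of the 8 receptor probe sets, as log2(normalized signal + offset) on the vertical axis, for 3 NASH arrays (red, left) and 3 Control arrays (blue, right) of each probe set; marker shapes give the replicate, horizontal lines the group means, and open markers the 2 dim probe sets. The groups overlap for every probe set, and NASH 2 lies lowest of the 6 arrays for Nr1h4 and highest for Rxra and Pparg.

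Ppara, the fatty acid receptor that governs oxidation in hepatocytes, was measured by M88592_at, a rather dim probe set whose mean lay at percentile 45.9 of all probe sets. Its normalized signals were 18.1, 10.04 and 13.9 in NASH 1, 2 and 3, against 23.8, 32.5 and 13.6 in Control 1, 2 and 3. Control 1 and Control 2 lay above all NASH arrays, but Control 3 lay below NASH 1 and NASH 3. The difference was −0.61 ± 0.37 (standard error, n = 3 per group; limma adjusted p = 0.692), with a 95% interval from 2.76-fold lower to 1.19-fold higher in NASH. The size rested on single Control arrays, at −0.35 without Control 2 and −0.92 without Control 3, and it was −0.16 without both Control 2 and NASH 2. The wash step was recorded for NASH 1, NASH 2, Control 1 and Control 3 and left blank for NASH 3 and Control 2. The difference was −0.36 within the recorded arrays and −1.11 within the blank pair.

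Ppard encodes PPAR delta, a fatty acid receptor found in most tissues. Its brightest probe set, rc_AI230294_at, had normalized signals of 100.9, 83.6 and 90.8 in NASH 1, 2 and 3 and of 127, 88.6 and 139.5 in Control 1, 2 and 3. Control 2 lay among the NASH values and the other Control arrays lay above them. The difference was −0.34 ± 0.23 (n = 3 per group, limma adjusted p = 0.725), and the interval ran from 1.83-fold lower to 1.15-fold higher in NASH. Without Control 2 the difference was −0.53, and without Control 3 it was −0.21. Within the arrays with a recorded wash it was −0.52, and within the blank pair 0.04.

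The other Ppard probe sets, U40064_at and U40064_g_at, were built on 1 shared accession and are not independent of each other. U40064_at had 35.7, 26.7 and 24.5 in NASH and 31.6, 28.9 and 41.7 in Control. NASH 1 lay above 2 of the 3 Control arrays. The difference was −0.22 ± 0.24 (limma adjusted p = 0.836), from 1.71-fold lower to 1.26-fold higher. The dim U40064_g_at had 5.91, 4.64 and 4.70 in NASH and 5.325, 9.92 and 16.45 in Control, a difference of −0.72 (exact permutation test, two-sided, p = 0.2, n = 3 per group). All 3 Ppard probe sets had negative differences, none of them called, and 3 against 3 arrays allow no exact p below 0.1.

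Pparg, the receptor that directs fat cell formation and fat storage, was below the intensity filter with AB011365_s_at. Normalized signals were 7.99, 35.3 and 14.8 in NASH 1, 2 and 3, against 18.7, 8.37 and 1.65 in Control 1, 2 and 3. The highest value was that of NASH 2 and the lowest that of Control 3. The difference was 0.98 (exact permutation test, two-sided, p = 0.5, n = 3 per group). It was 0.47 without NASH 2, 0.33 without Control 3 and 0.23 with array weights. The pooled standard deviation within groups was 1.095 on the log2 scale, where the median over tested probe sets was 0.32. NASH 2 was also the array with the fat and muscle transcripts. The second highest Pparg value, 18.7 in Control 1, came with a fat cell marker sum of 440, while NASH 1, at 7.99, had a sum of 451. Lep alone had normalized signals of 286.8 in Control 1 and 273 in NASH 1, so these sums cannot compare fat cell content. A part of the fat and muscle transcripts in the Pparg value of NASH 2 was not tested.

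Nr1h3, or LXR alpha, is a sterol sensor and was the brightest of the receptor probe sets relative to the array, with a mean at percentile 87.6. U11685_at had normalized signals of 212.5, 162 and 235 in NASH 1, 2 and 3 and of 205, 155.5 and 284 in Control 1, 2 and 3. The range of the NASH arrays lay inside that of the Control arrays. The difference was −0.05 ± 0.27 (limma adjusted p = 0.966, n = 3 per group), with an interval from 1.61-fold lower to 1.49-fold higher. Its sign turned with the array left out, from −0.26 without Control 2 to 0.17 without Control 3. It was −0.38 within the arrays with a recorded wash and 0.59 within the blank pair.

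Nr1h4, or FXR, the bile acid sensor, was measured by U18374_at a bright probe set with a mean at percentile 83.1. Normalized signals were 144, 63.4 and 169.5 in NASH 1, 2 and 3 and 164, 159.8 and 121 in Control 1, 2 and 3. NASH 2 had less than the lowest Control array, while NASH 1 lay within the Control range and NASH 3 above it. The difference was −0.34 ± 0.37 (limma adjusted p = 0.836, n = 3 per group), from 2.27-fold lower to 1.42-fold higher. Without NASH 2 it was 0.09, of the opposite sign. The hepatocyte marker sum of NASH 2 was 34760, while NASH 1 had 34620 and NASH 3 had 33800. Markers within this sum differed in direction between NASH 1 and NASH 2. In deposited signals of NASH 1, 2 and 3, Otc had 1255, 506.8 and 582.4, and Arg1 had 1802, 1003 and 1154. Serpina1 had 6180, 6596 and 5593. These deposited signals share no common scale, with 2% trimmed means of 107, 90.5 and 73.6 in the 3 arrays, so NASH 3 reads low in them. A part of cell content in the low Nr1h4 value of NASH 2 was not tested. The Nr1h4 difference was −0.55 within the arrays with a recorded wash, NASH 2 among them, and 0.08 within the blank pair.

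Rxra, the shared partner of the other receptors, had the smallest p of the tested receptor probe sets, with rank 387 of 5244. L06482_at had normalized signals of 61.55, 77.4 and 51.9 in NASH 1, 2 and 3, against 52.2, 38.9 and 37.5 in Control 1, 2 and 3. NASH 3 and Control 1 overlapped by a narrow margin, and all other NASH values lay above all Control values. The difference was 0.54 ± 0.23, or 1.46-fold, with an interval from 1.01-fold to 2.11-fold higher. It did not pass, with a limma p of 0.0472 before and 0.619 after adjustment (exact permutation test, two-sided, p = 0.2, n = 3 per group). It ranged from 0.40 without NASH 2 to 0.69 without Control 1, was 0.31 with array weights and 0.34 without both Control 2 and NASH 2, and was 0.62 within the arrays with a recorded wash and 0.40 within the blank pair.

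**Figure D2:**
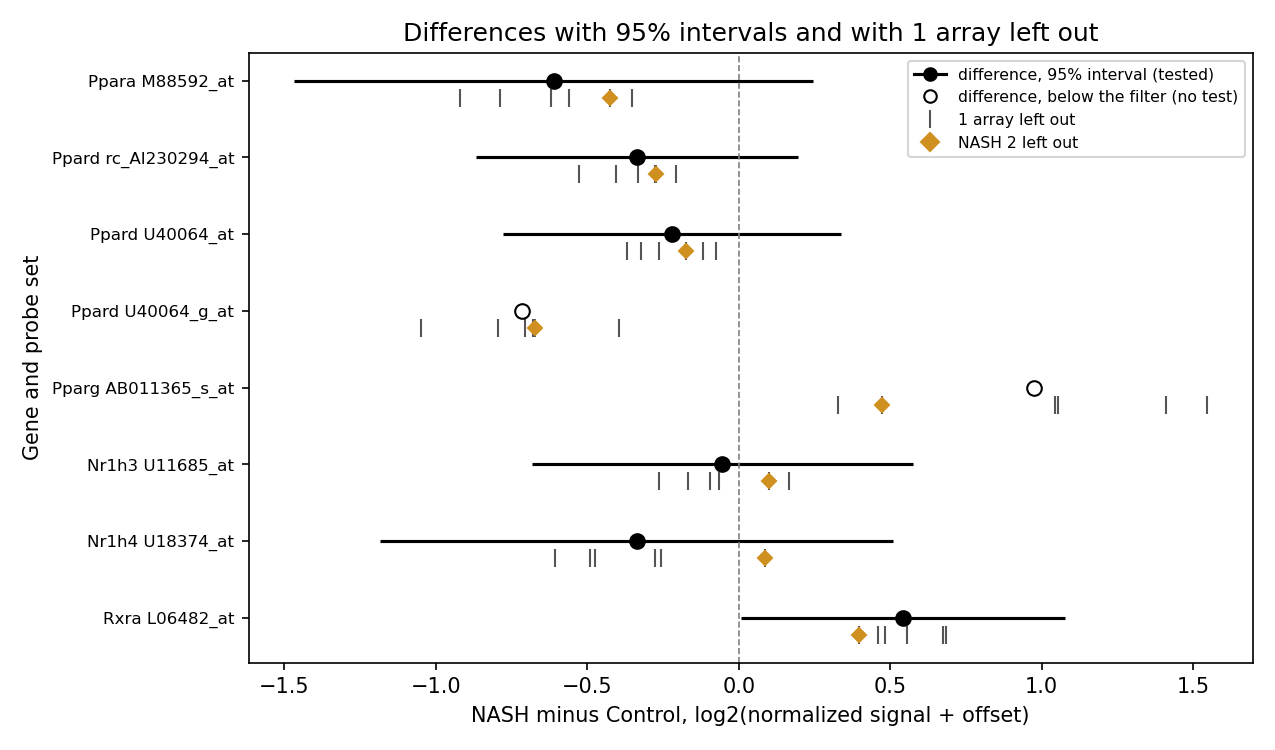
NASH minus Control differences on the log2(normalized signal + offset) scale (horizontal axis) for the 8 receptor probe sets (rows); black points with lines give the difference and its 95% interval for the 6 tested probe sets, open points the 2 dim ones, ticks the values with 1 array left out, and diamonds those without NASH 2. All intervals but that of Rxra include 0, and for Nr1h3 and Nr1h4 the diamond lies on the other side of 0 from the point.

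NASH 2 and Control 3 were the arrays at which the receptor values most often reached an extreme. NASH 2 was the lowest of the 6 arrays for 4 of the 8 probe sets and the highest for 2 (Pparg and Rxra). The 4 were those of Ppara, Nr1h4 and 2 of Ppard. Over all tested probe sets, NASH 2 was lowest for 20.3% and highest for 16.1%. Control 3 was lowest for 2 and highest for 4 receptor probe sets, where it was lowest for 21.5% and highest for 25.2% of all tested. Within groups, the pooled standard deviation on the log2 scale was 0.48 for Ppara, 0.36 for Nr1h3, 0.55 for Nr1h4 and 0.27 for Rxra, against the median of 0.32. The receptors therefore did not share 1 level of precision, and the intervals of Ppara and Nr1h4 were the widest.

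For each tested receptor probe set, the closest profiles over the 6 arrays were sought among 4293 probe sets of other genes, by the root mean square difference between centred log2 values. These are descriptions of the nearest among many, without a test. The profile of Ppara was nearest to Slc2a2, the glucose transporter of hepatocytes (0.108), and to the retinoid X receptor Rxrb (0.13), with NASH minus Control differences of −0.58 and −0.51 (limma adjusted p = 0.619 and 0.641). Nr1h3 lay nearest to the nucleotide enzyme Dut (0.06) and the lysosomal acid lipase Lipa (0.068). Nr1h4 had no profile closer than Cyp2j3 (0.159) and Pfkfb4 (0.161), and Rxra lay nearest to the collagen chaperone Serpinh1 (0.114) and the kinase Map2k1 (0.129). The brighter Ppard probe set lay nearest to the kinase Eif2ak2 (0.074) and the ATP synthase inhibitor Atp5if1 (0.076), and U40064_at to Slc22a18 (0.059) and Tgm4 (0.068).

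None of the other nuclear receptors tested was called, where 0.133% of all tested probe sets were. Of 35 listed, 26 were measured and 21 tested, with 8 positive and 13 negative differences. Their median was −0.10, where the median over all tested probe sets was −0.02. Without overlap, 1 of the 21 lay higher and 2 lower in NASH, where 6.54% and 7.76% of all tested did. The glucocorticoid receptor Nr3c1 had the smallest p of them, with normalized signals of 61.1, 61.2 and 61.4 in NASH and 79.3, 101.6 and 90.3 in Control. The groups did not overlap, and the difference was −0.54 ± 0.19 (limma adjusted p = 0.544). Nr1h2, the LXR form found in most tissues, differed by −0.45 ± 0.24 (a second, dim probe set by 0.40) and Rxrb by −0.51 ± 0.27 (adjusted p = 0.641 for both). Rxra and Rxrb thus had differences of opposite sign, neither called, and the difference between them was not tested. Rxrg, a further retinoid X receptor, lay higher without overlap and differed by 0.12 (limma adjusted p = 0.874). Its other probe sets differed by 0.83 and 0.49, neither called. Nr2f2 differed by −0.59 and the mineralocorticoid receptor Nr3c2 by 0.58 (adjusted p = 0.619 and 0.725), while a second, dim Nr3c2 probe set differed by −0.42. Of 18 coregulators, the coactivators Ncoa1 (−0.29) and Med1 (−0.33) were tested, and neither passed.

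Known target genes of PPAR alpha lay mostly higher in NASH. Of 39 listed, 29 were tested, and 25 had positive and 4 negative differences, with a median of 0.93 on the log2 scale against −0.02 over all tested probe sets. With adjustment over all probe sets tested, 1 of the 29 was called higher, where 0.0953% of all were. An unadjusted limma p under 0.05 was reached by 17, all higher in NASH, where 3.81% of all did. Without overlap, 15 lay higher in NASH, where 6.54% of all did. Acsl1, an acyl-CoA synthetase, lay lower without overlap (−0.49, limma adjusted p = 0.619), where 7.76% of all did, and its 3 other probe sets differed by 0.02 to 0.71. The list was chosen with earlier results of these data known, and each gene was taken at its brightest probe set. Acot2, a mitochondrial acyl-CoA thioesterase, had normalized signals of 172.8, 112.9 and 223.5 in NASH and 19.2, 17.3 and 10.5 in Control, and rose by 3.25 ± 0.31 (limma adjusted p = 0.0225). The call was lost on leaving out any single array except NASH 2, with no intensity filter, with the replicate number as a block and within the arrays with a recorded wash. A second Acot2 probe set differed by 1.07 (adjusted p = 0.503). The thiolase Acaa2 differed by 1.06, the dehydrogenase Acadl by 1.00 (a second, dim probe set by −0.70), the fatty acid transporter Cd36 by 1.64 and the isomerase Eci1 by 2.13, with limma adjusted p-values from 0.0776 to 0.163. For Cd36 and Eci1 another, dimmer probe set was called (2.98 and 2.62, adjusted p = 0.0342 and 0.0356), while one more Eci1 probe set differed by −0.19.

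The mean of the 29 target genes, each centred on its own mean, was 0.63, 0.14 and 0.80 in NASH 1, 2 and 3 and −0.46, −0.66 and −0.44 in Control 1, 2 and 3. NASH 2 was the lowest NASH array in this mean and also had the lowest Ppara signal of the 6 arrays, 10.04. A part of the fat and muscle transcripts of NASH 2 in these values was not tested. Control 2 had both the highest Ppara signal, 32.5, and the lowest target mean. Target means and Ppara signals therefore did not run in 1 order across the arrays. Acot1 showed the NASH 2 gap most, with 252.7, 16.7 and 497.3 in NASH against 6.94, 26.5 and 5.53 in Control, a value pointed out after it was seen.

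**Figure D3:**
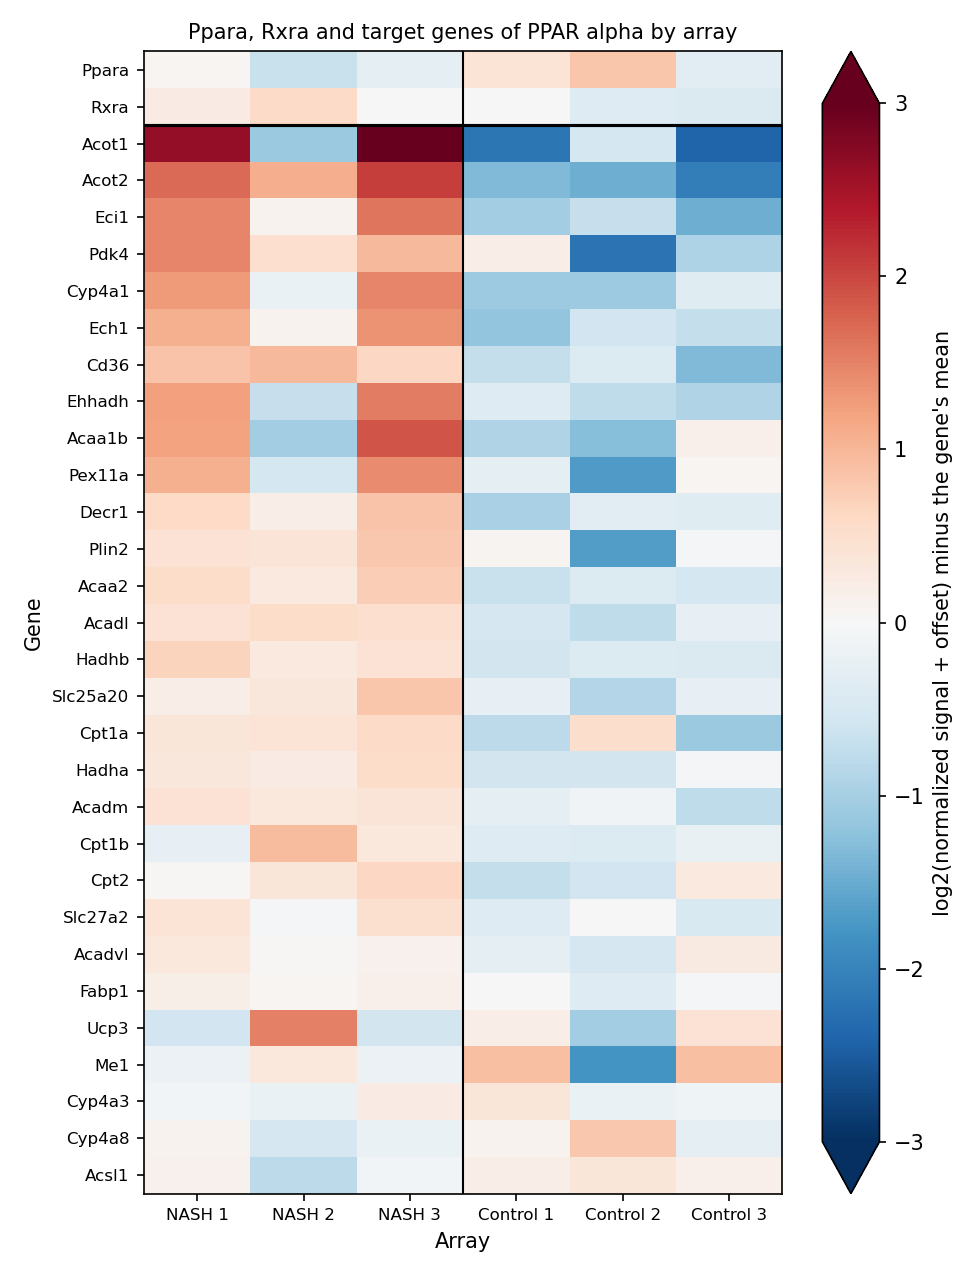
Deviation of each gene from its own mean over the 6 arrays (colour, log2 scale, with values beyond 3 in either direction at the end colours) for Ppara and Rxra (top 2 rows) and 29 tested target genes of PPAR alpha, ordered by difference, in 3 NASH arrays (left) and 3 Control arrays (right). Most target genes are above their mean in NASH 1 and NASH 3 and below it in Control, while Ppara is highest in Control 2.

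PPAR alpha binds DNA with its partner at the DR1 element, a direct repeat of a half-site with 1 base between. RefSeq promoter windows of the rat assembly GRCr8, from 250 bases before to 50 after each start site, were searched on both strands for AGGTCA, 1 free base and AGGTCA again, with up to 2 mismatches in the fixed letters. A match was present in 5 of 24 windows of the tested target genes (20.8%) and in 1263 of all 33469 windows (3.77%). The 5 stretches are shown because they are the target genes with such an element next to the start, with the match in capitals and 8 bases on each side. Written 5′ to 3′ on the strand of the gene, the matches of Fabp1 and Slc27a2 are the reverse complement of the motif.
Fabp1: acaatcacTGACCTATGGCCTatatttga
Acadvl: gggagaagAGGTCAGTGGTCAaggcttca
Slc27a2: tgaagaaaTGACCTTTGAGATatgccatc
Slc25a20: cttaatgtAGGTGAAAGGTCGgtgtagcc
Ucp3: tcagaattAGGTTTCAGGTCAgctggtgc
They lie at chr4:104749255-104749283, chr10:55236702-55236730 (minus strand), chr3:134258017-134258045, chr8:118243580-118243608 and chr1:164227845-164227873. The match has 1 mismatch in Fabp1 and Acadvl and 2 in the others, and it begins at −77, −17, −76, 16 and −57 relative to the start site in the same order.

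None of these 5 genes passed the test. All had positive differences, as did 25 of the 29 tested target genes. The liver fatty acid binding protein Fabp1 had 5887, 5466 and 5847 in NASH and 5279, 4026 and 5144 in Control, without overlap. Its difference was 0.26 ± 0.12 (limma adjusted p = 0.619). The carnitine carrier Slc25a20 differed by 0.91 ± 0.27 (adjusted p = 0.452), the acyl-CoA synthetase Slc27a2 by 0.55 ± 0.20 and the dehydrogenase Acadvl by 0.33 ± 0.25. The uncoupling protein Ucp3 differed by 0.26 ± 0.64, and by −0.44 without NASH 2, the array with muscle transcripts. For the receptors themselves, 4 of 6 had a promoter window, 5 windows in all, and 0 of the 5 held the DR1 motif. The DR4 motif of LXR (the same repeat with 4 free bases between) was in 0 of the 5, against 2.93% of all windows. The IR1 motif of FXR (AGGTCA, 1 free base and TGACCT) was in 1 of the 5, a window of Pparg, against 1.51% of all. A match is a description of letters and not a measured binding site.

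Target genes of LXR had differences of both signs. Of 21 listed, 9 genes were tested, 6 with positive and 3 with negative differences and a median of 0.13, which was 0.016 without NASH 2, with 5 positive. The desaturase Scd had 397, 252 and 103 in NASH and 4836, 2429 and 4928 in Control, and fell by 4.13 ± 0.49 (limma adjusted p = 0.0342). Srebf1, the factor through which LXR drives fat synthesis, differed by −0.35 (adjusted p = 0.652), and Apoe by −0.20, Elovl5 by 0.62 and Lpl by 1.22 did not pass either. Lpl differed by 0.10 without NASH 2. The Scd call ended when any array other than NASH 2 was left out, with no intensity filter, with the replicate number as a block and without the intensity trend of limma. A second Scd probe set differed by −4.85 and was not called (adjusted p = 0.0585). Among LXR targets 1 of 9 was called lower, where 0.0381% of all tested probe sets were. Without overlap, 0 of the 9 lay higher and 3 lower in NASH (Scd, Srebf1 and Apoe), where 6.54% and 7.76% of all tested did.

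For FXR, 14 target genes were tested and 0 were called, where 0.133% of all tested probe sets were. An unadjusted limma p under 0.05 was reached by 3, all higher, where 3.81% of all tested were. The median difference was 0.15. The list mixes genes that FXR raises with genes that it lowers, so the median gives no direction of FXR activity. Abcb4, the phospholipid exporter of bile, had 124.9, 129.5 and 130.5 in NASH and 79.4, 100.1 and 39.5 in Control. The groups did not overlap, and the difference was 0.89 ± 0.33 (adjusted p = 0.566). The fibrinogen chain Fga differed by 0.27 and the complement factor C3 by 0.22, with 1 of 2 C3 probe sets at −0.17. Fgb differed by 0.27 and the bile acid conjugating enzyme Baat by −0.15, with adjusted p-values of 0.619 and 0.814. Nr0b2, the repressor through which FXR acts, differed by −0.16, and its other probe sets by −0.48 and −0.46, none called.

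Fat cell target genes of PPAR gamma were on average highest in NASH 2, where Pparg was highest too. All 9 tested genes had positive differences, with a median of 1.13 that was 0.37 without NASH 2. Of the 9, 0 were called, where 0.133% of all tested probe sets were. An unadjusted limma p under 0.05 was reached by 2, both higher, where 3.81% of all tested were. The centred mean of the 9 genes was 2.13 in NASH 2, −0.06 and 0.03 in the other NASH arrays and −0.90 to −0.57 in Control. Ucp1, Lep, Cfd and Lipe of this list were also among the fat and brown fat markers by which NASH 2 was set apart above. Cidea is a brown fat marker too, with a deposited signal of 357.1 in NASH 2. The height of this mean in NASH 2 is thus not a separate observation, and a link to Pparg was not tested. The lipid droplet protein Cidea differed by 2.17 (1.42 without NASH 2), Ucp1 by 3.12 (1.15 without it) and the lipase Lipe by 1.13 (0.37 without it), with limma adjusted p-values from 0.452 to 0.620. The gluconeogenic enzyme Pck1, which liver expresses itself, had 1024, 1335 and 874.5 in NASH and 264.6, 1317 and 329.2 in Control, a difference of 1.12 that was 1.84 without Control 2. Cd36 is on this list and on that of PPAR alpha, and its difference of 1.64 was 1.56 without NASH 2.

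**Figure D4:**
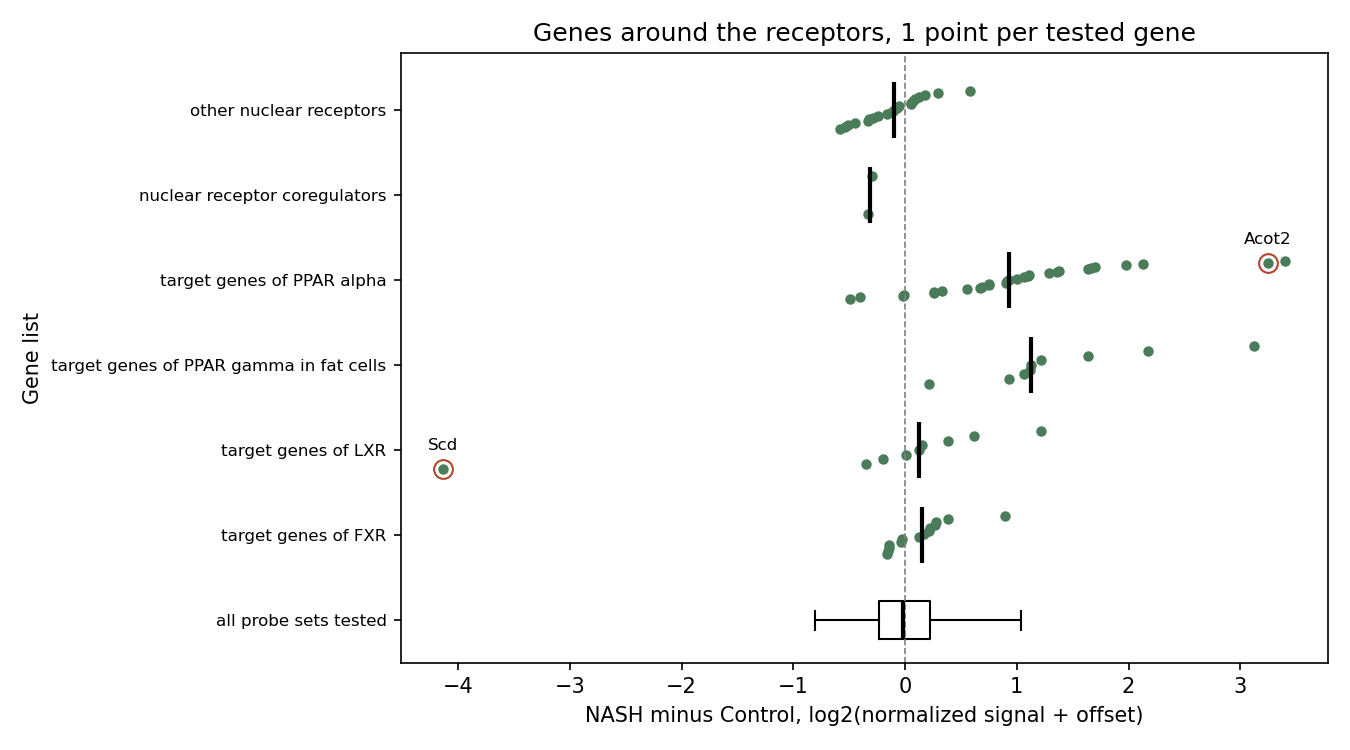
NASH minus Control differences on the log2(normalized signal + offset) scale (horizontal axis) of the tested genes in each list (rows), 1 point per gene, with the list median as a black bar and called genes circled and named; the box shows the quartiles and median of all 5244 tested probe sets, with whiskers over the central 95%. The median is 0.93 for target genes of PPAR alpha and −0.10 for other nuclear receptors, and Acot2 and Scd are the only genes circled.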

How the data were processed

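The deposited intensities are linear MAS5 signals, per the submitters' processing notes, without a version. How MAS5 was scaled is not given in the sources used here. Detection calls were not used. Per the file headers, the instrument records hold other information (array type, tissue, wash and scan settings). Groups come from sample titles, while the description field names the first Control sample for all 6, which goes against the titles of 5. Trimmed means (2%) of the deposited signals ran from 73.6 to 117, so the arrays were quantile normalized. The offset of 2.21 was the 10th percentile of the deposited values. Of 8799 probe sets, 59 controls were left out, and those with a mean log2 above the 40th percentile (3.94) were tested. limma 3.58.1 in R 4.3.3 (lmFit, eBayes with intensity trend, no covariates) compared NASH with Control, with Benjamini-Hochberg adjustment over 5244 probe sets. Symbols came from the platform annotation, which gave 1 symbol for 7006 probe sets, several for 308 and did not list 1426. Arrays, at 3 per group, limit the precision.

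The members and lists were chosen with earlier results of these data known. Named were all receptor probe sets, up to 5 genes per list with the smallest p, the 2 nearest profiles per tested receptor probe set and 4 transcripts of NASH 2. Genes with a DR1 match, Acot1, Acsl1, Nr0b2, Rxrg, Lep and further probe sets of some named genes were added after their values were seen. Alternatives were another scaling, offset, filter or variance prior, weighting of arrays, blocks for wash record and replicate number, and leaving arrays out. The test was run on simulated data first.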

Additional observations from a re-analysis of the deposited data

How the results depend on the processing

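Under the 18 alternatives no receptor probe set was called, with limma adjusted p-values from 0.488 to 0.996 among those tested. Signs held in all of them for Ppara, Ppard, Pparg and Rxra. The difference of Nr1h3 turned to 0.034 with array weights, 0.17 without Control 3 and 0.099 without NASH 2, and that of Nr1h4 to 0.087 without NASH 2 and 0.15 without both Control 2 and NASH 2. With 1 array left out, Nr1h3 ran from −0.26 to 0.17 and Nr1h4 from −0.61 to 0.09. The cause was not tested. Without scaling, where the median of all tested probe sets moved to −0.17, the differences were −0.70 for Ppara and 0.36 for Rxra.

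Over all probe sets, limma called 7 in the reported setting, 14 without scaling, 18 with array weights and 16 without both Control 2 and NASH 2. It called 3 without the intensity trend, 3 with the wash record as a block and 1 within the arrays whose wash was recorded. With no filter it called 0 (633 at an unadjusted p under 0.05). With the replicate block it called 1, which was none of the 7. Correlations of same-numbered deviations were 0.049, −0.021 and 0.073, and those of different numbers ran from −0.13 to 0.084. With 3 samples per group these values cannot settle whether same-numbered samples were handled together. With 1 array left out the count ran from 0 (without Control 1, Control 3 or NASH 3, with 260 to 510 at an unadjusted p under 0.05) to 17 (without NASH 2). Of list genes, 2 were called in the reported setting, 0 with no filter or with the replicate block (21 and 27 at an unadjusted p under 0.05), 1 without the trend, 1 within the arrays whose wash was recorded, 6 with array weights and 7 without both arrays. With 1 array left out they ran from 0 to 8, which was reached without NASH 2.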
